A study of Mus musculus with 24 samples.

Results

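Wild-type extraocular muscle at 112 days was compared with the same muscle at 56 days. The muscles that move the eye were taken from wild-type mice, called control in the sample titles, and 3 Affymetrix arrays stood for each age, so 6 of the 24 arrays of the series carry the comparison. The other 18 arrays are control muscle at 14 and 28 days and muscle of mdx mice, which lack dystrophin, at 14, 28, 56 and 112 days, with 3 arrays a group. No treatment is named. The labels give neither strain nor sex, nor whether each array had an animal of its own, and the spread behind the p-values may therefore be technical. All 12422 probe sets that are not controls of the manufacturer were considered, and 7453 of them were bright enough to be tested.

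Extraocular muscle differs from limb muscle in that its adult fibres keep myosins that limb muscle uses only during development or regeneration, together with a cardiac myosin and the fast myosins. It is small, richly innervated, rich in mitochondria and vessels, and embedded in the connective tissue of the orbit. In mice, muscle growth slows after the first weeks of life, and the synthesis of fibrillar collagens and elastin slows with it in most organs. The arrays read bulk RNA, so fewer cells of a type and less RNA per cell cannot be told apart. Intensities below are on a scale on which each array has a trimmed mean of 500, and they can be compared between arrays for 1 probe set but not between probe sets.

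A pair of the 6 arrays stood apart, and one of them went against its label. On the array labelled control 112-day replicate 1 the embryonic myosin gene Myh3 (160753_at) read 41.1, where the other 23 arrays lay between 3550.1 and 6341. The perinatal myosin gene Myh8 (160243_r_at) read 132 there, against 1352 to 2815 on the other 23, and the cardiac alpha myosin gene Myh6 (101071_at) read 12.9 against 158 to 447. The markers that set eye muscle apart from other muscle were therefore low on that array alone. General skeletal muscle genes were uneven there. Myh1 (98308_at) read 12877 and the calcium channel gene Cacna1s (101128_at) 6066. The fast myosin gene Myh4 (98488_at) read 351, against 2465 to 11101 on the other control arrays at 56 and 112 days.

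Some Hox genes, which mark position along the body axis, were high on the same array. One probe set of Hoxd8 (93221_at) read 873, against 46.4 to 256 on the other 23 arrays, and the other (160460_at) read 1203 against 118 to 492. Hoxc9 (92891_f_at) read 456 against at most 162, and Hoxa10 (92970_at) 149.9 against at most 47.7. Of 38 Hox probe sets, 17 were highest of the 6 arrays on control 112-day replicate 1 and 13 on control 56-day replicate 2, where these arrays were highest for 23.3% and 28.2% of all tested probe sets. Only 12 of the 38 were bright enough to be tested, and the 4 probe sets given were singled out after their values were seen. Car3 (160375_at), a carbonic anhydrase of slow muscle and fat, read 10463 against 1013 to 2769, and the slow light chain gene Myl3 (93514_at) read 5134 where the other 2 arrays of its age read 443 and 438. The fast fibre gene Actn3 (162164_f_at) was high there too, with 8099 against 711 to 900 on the other control arrays at 56 and 112 days. Of 17 tested slow and cardiac genes 2 were highest of the 6 arrays there and 6 lowest. Of 19 tested fast genes these counts were 7 and 3, where 26.5% of all tested probe sets were lowest on that array. The acetylcholine receptor gene Chrna1 (100021_at) read 191 against 1139.6 to 2821, and Bpifa2 (100080_at), a secreted salivary protein, 155 against 234 to 4028. The probe set of Myh2 (92218_at) was too dim on all 6 arrays to be tested.

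**Figure D1:**
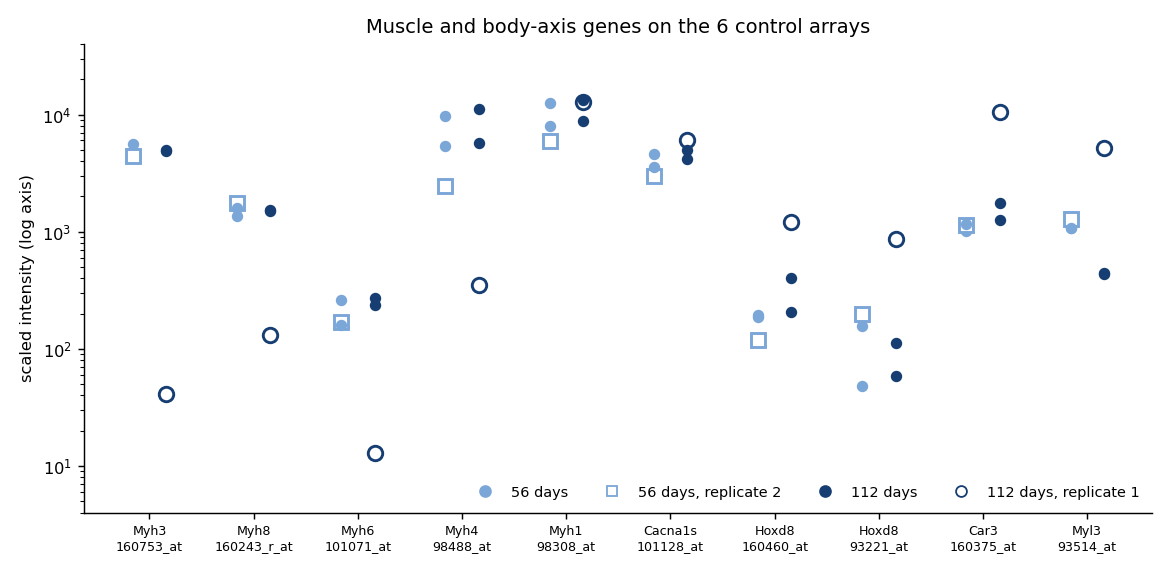
Scaled intensity (log axis) of 10 probe sets on the 3 control arrays at 56 days (light blue) and the 3 at 112 days (dark blue), with 56-day replicate 2 as an open square and 112-day replicate 1 as an open circle. The open circle lies far below the rest for Myh3, Myh8, Myh6 and Myh4, among them for Myh1, and above them for Cacna1s, both Hoxd8 probe sets, Car3 and Myl3.

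The array labelled control 56-day replicate 2 stood apart in another way. Its deposited values had the highest median of the 24 arrays, 806.3, and the lowest maximum, 26246.4, a narrower range than on any other array. The light chain gene Myl1 (92541_at) read 266 there and 9477 and 939 on the other arrays of its age, and the chloride channel gene Clcn1 (95376_at) read 198 against 2086 and 1487. Its mean correlation with the other 23 arrays was 0.865, that of control 112-day replicate 1 was 0.908, and the lowest of the remaining arrays reached 0.918. On control 112-day replicate 1, 125 tested probe sets lay more than 2 log2 units below the mean of the other arrays of its age and 31 above, and on control 56-day replicate 2 these counts were 94 and 101. The 3'/5' ratio of beta-actin lay between 1.14 and 1.48 at 56 days and between 0.856 and 1.73 at 112 days. That of Gapdh lay between 0.0126 and 0.105 at 56 days and between 0.105 and 0.479 at 112 days. The part of these ratios in the results was not tested. Leaving out this pair left 2 arrays against 2, and the values of that fit stand beside those of all 6 arrays for the called genes named and the lists that held them. Further probe sets of a gene are given with all arrays only, unless stated.

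Dmd (93623_at), the dystrophin gene that is mutated in mdx mice, checked the genotype labels. It read 357, 568 and 717 on the control arrays at 56 days and 234, 371 and 443 at 112 days, and between 104 and 143 on all 6 mdx arrays of those ages. The control and mdx arrays did not overlap. The difference between the control ages, -0.62 ± 0.28 on the log2 scale (SE), did not pass the test (limma, adjusted p = 0.256), and it was -0.31 without the pair (adjusted p = 0.799).

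Few probe sets passed the test between the ages. In limma's moderated test with Benjamini-Hochberg adjustment, 57 of 7453 probe sets passed an adjusted p of 0.05 with all arrays (0.765%), of which 33 were higher at 112 days (0.443%) and 24 lower (0.322%). They stood for 52 named genes, 29 higher and 23 lower, and 4 probe sets without a gene symbol, all higher. The size of the difference ran from 0.63 to 3.13 on the log2 scale, with a median of 1.32. Without the pair of arrays 6 probe sets passed (0.0805%), 4 higher (0.0537%) and 2 lower (0.0268%), and 5 of the 6 were among the 57. At an unadjusted p under 0.05 there were 1319 probe sets with all arrays (17.7%) and 714 without the pair (9.58%).

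All 57 kept their sign and an unadjusted p under 0.05 without the pair, but 46 of them became smaller. The 57 were picked in a fit that held these same arrays, so neither this nor their separation by age is an independent check. In all 57 the 3 arrays of one age lay on one side of the 3 of the other. Over all tested probe sets that held for 1380 in either direction (18.5%) and for 635 that were lower (8.52%), and among the 4 remaining arrays for 3512 (47.1%) and 1504 (20.2%). The array labelled control 112-day replicate 1 was the most extreme of the 6 in the direction of the change in 39 of the 57, and control 56-day replicate 2 the most extreme in the opposite direction in 34. Since the ages were separated in all 57, 1 of the 3 arrays of each age had to be outermost. Of all tested probe sets, 26.5% were lowest and 23.3% highest on control 112-day replicate 1, and 24.1% and 28.2% on control 56-day replicate 2. Without control 112-day replicate 1 alone 7 probe sets passed, 6 of them among the 57. Further tested probe sets existed for 21 of the 52 genes, 23 in all. Of these 23, 14 had the same sign as the called one, 5 of them with an unadjusted p under 0.05, and 1 passed. With median scaling in place of the trimmed mean 33 were higher and 13 lower.

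**Figure D2:**
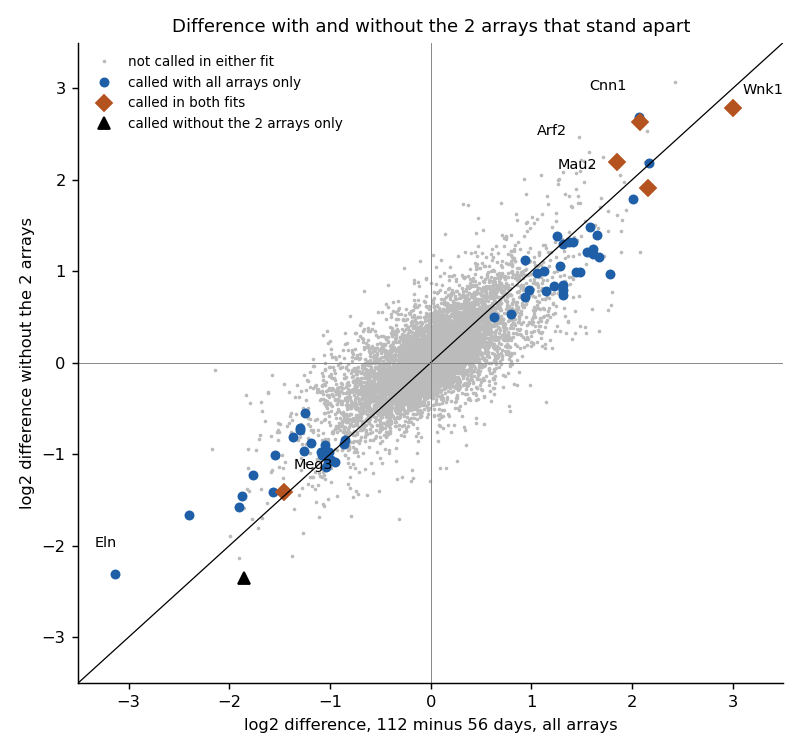
Log2 difference (112 minus 56 days) of each tested probe set with all arrays (x axis) and without control 112-day replicate 1 and control 56-day replicate 2 (y axis), with the line of equality. For 46 of the 57 probe sets called with all arrays the difference without the pair is the smaller, and Meg3, Wnk1, Mau2, Cnn1 and Arf2 passed in both fits.

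Meg3, an imprinted gene of the Dlk1-Dio3 cluster whose long non-coding RNA is abundant in fetal and young muscle, had the smallest p of all. Its probe set 160173_at read 446, 541 and 520.02 at 56 days and 173, 145 and 201 at 112 days. The groups were far apart, and neither array that stood apart was out of place. The log2 difference was -1.46 ± 0.17 (SE; limma, adjusted p = 0.000242), and -1.41 ± 0.21 without the pair (limma, adjusted p = 0.0123). The second probe set (160172_at) read 872, 160.1 and 493 at 56 days and 80, 121 and 111 at 112 days. It was lower on all 3 arrays at 112 days too, with a difference of -1.86 ± 0.45 that did not pass with all arrays (adjusted p = 0.0517) and -2.35 ± 0.44 that passed without the pair (adjusted p = 0.0492), where it was the 1 probe set called only there. Younger control muscle was higher still on 160173_at, with 1466 ± 248 at 14 days and 759 ± 121 at 28 days (mean ± SD, n = 3).

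The mdx arrays are separate from the control arrays and gave nearly the same values. On 160173_at mdx muscle read 580.5, 563 and 467 at 56 days and 188, 207 and 186 at 112 days, a fall of -1.39 ± 0.17 on the log2 scale (SE; limma, adjusted p = 0.000508). The control difference minus the mdx difference was -0.06 ± 0.25 (limma, adjusted p = 0.963).

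The bases before the annotated start of Meg3 are shown since its transcript fell in both genotypes. The sequence is from RefSeq (GRCm38.p6), ends at the base before the start, and is written in lower case with 3 motifs in capitals on either strand: the cAMP response element TGACGTCA, the CCAAT box CCAAT and the TATA box TATAAA. The table lists a second start of Meg3, whose 150 bases held none of these letters.
Meg3 (chr12:109540846-109540995, + strand): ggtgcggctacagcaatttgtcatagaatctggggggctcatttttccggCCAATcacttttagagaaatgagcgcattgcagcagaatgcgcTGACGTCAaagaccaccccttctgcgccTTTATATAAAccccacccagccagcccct
The stretch held TGACGTCA 57 bases before the start, CCAAT 100 bases before it, and 2 overlapping matches to TATAAA, on opposite strands, 29 and 25 bases before it. In the 150 bases before all 32851 listed starts, 1.36% held the first motif, 24.5% the second and 7.57% the third. A match is a description of the letters only.

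Wnk1, a kinase that regulates the transport of salt ions and cell volume, rose most. Its probe set 161270_i_at read 266, 133 and 111 at 56 days and 1577, 1149 and 1451 at 112 days, a difference of 3.00 ± 0.41 on the log2 scale (SE; limma, adjusted p = 0.000734) and 2.79 ± 0.52 without the pair (adjusted p = 0.0492). Each array at 112 days was at least 4 times as bright as each at 56 days. The other probe sets of Wnk1 differed: 160739_at read 282, 567 and 176 against 963, 668 and 1031 (1.46, adjusted p = 0.0705), without overlap, and 94003_at read 3010.02, 2627 and 3114 against 4259, 3735 and 3031 (0.32, adjusted p = 0.32), with overlap. In mdx muscle 161270_i_at read 272, 348 and 163 at 56 days and 1285, 1361 and 1003 at 112 days, without overlap, but the difference of 2.20 ± 0.41 did not pass (limma, adjusted p = 0.0584).

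Mau2, a subunit of the complex that loads cohesin onto chromosomes, also rose. It (104035_at) read 90.9, 53.4 and 75.7 at 56 days and 417, 399.8 and 319 at 112 days, a difference of 2.16 ± 0.29 (SE; limma, adjusted p = 0.000734) and 1.91 ± 0.35 without the pair (adjusted p = 0.0478). The lowest array at 112 days read over 3 times the highest at 56 days. Control muscle read 330.1 ± 89.3 at 14 days and 421 ± 103 at 28 days (mean ± SD, n = 3), so the 56-day level was the lowest of the 4 ages. The difference of Mau2 in mdx muscle was 0.85 and did not pass (limma, adjusted p = 0.549).

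Cnn1, the calponin of smooth muscle, and Arf2, a small GTPase of membrane traffic, were the other genes that rose in both fits. Cnn1 (99942_s_at) read 110.3, 67.7 and 19.9 at 56 days and 146, 386 and 418 at 112 days, 2.07 ± 0.43 on the log2 scale (limma, adjusted p = 0.0273) and 2.63 ± 0.48 without the pair (adjusted p = 0.0478). Control 112-day replicate 1 was the lowest of its age, just above the highest array at 56 days. Arf2 (100518_at) read 30.4, 120.2 and 22 at 56 days and 290.3, 212 and 145 at 112 days, 1.85 ± 0.41 (limma, adjusted p = 0.0352) and 2.19 ± 0.38 without the pair (adjusted p = 0.0478). Both were dim at 56 days, where control 14-day muscle read 328 ± 34.5 for Cnn1 and 168 ± 47.4 for Arf2 (mean ± SD, n = 3). The differences in mdx muscle were 1.37 for Cnn1 and 0.14 for Arf2, and neither passed (limma, adjusted p = 0.496 and 0.986).

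**Figure D3:**
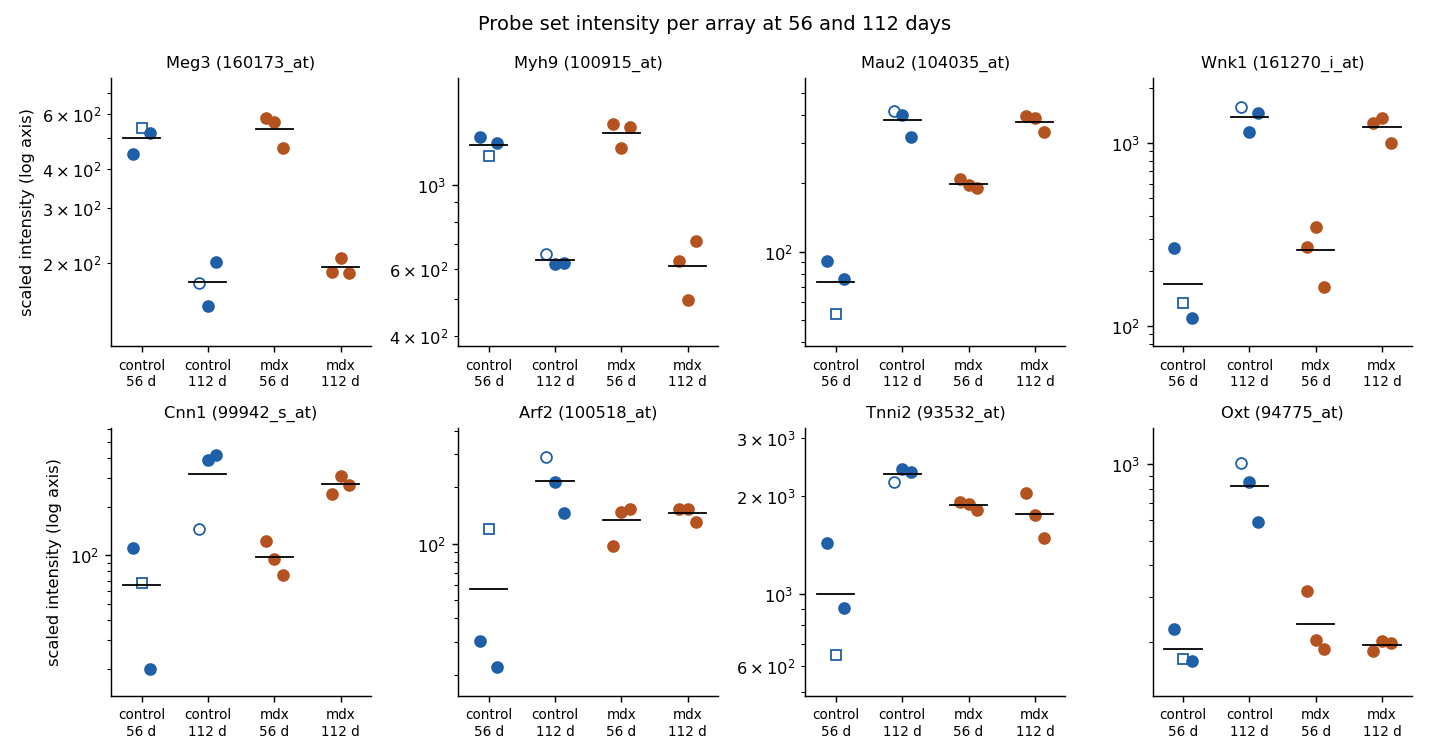
Scaled intensity (log axis, 1 range per panel) of 8 probe sets on each array of control muscle (blue) and mdx muscle (brown) at 56 and 112 days, with black bars at the group means, control 56-day replicate 2 as an open square and control 112-day replicate 1 as an open circle. Meg3 and Myh9 were lower at 112 days on every array of both genotypes, while Tnni2 and Oxt were higher at 112 days on every control array and the mdx ages overlap.

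Myh9, the heavy chain of a myosin of non-muscle cells, fell in both genotypes. It (100915_at) read 1334, 1189 and 1289 in control muscle at 56 days and 659, 617 and 623 at 112 days, a difference of -0.99 ± 0.21 (SE; limma, adjusted p = 0.0273). Both ages were tight, and the difference without the pair was -1.06 ± 0.25 (adjusted p = 0.141). Mdx muscle read 1448, 1250.1 and 1423 at 56 days and 629.8, 495 and 709 at 112 days, a difference of -1.16 ± 0.21 (limma, adjusted p = 0.0443). The second probe set (102108_f_at) did not repeat this, with -0.47 in control muscle (adjusted p = 0.411) and 0.05 in mdx muscle.

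Meg3 and Myh9 were the 2 probe sets called between 56 and 112 days in mdx muscle (0.0268% of 7453). Of the 57 probe sets called in control muscle, 45 (78.9%) had the same sign in mdx muscle, against 57.2% of all tested probe sets. The 2 comparisons share no array, but they share the estimate of the spread. The difference between the genotypes in the change from 56 to 112 days was called for 0 probe sets (0%) in limma's test, with a smallest adjusted p of 0.559, and 569 had an unadjusted p under 0.05. Without the pair 0 were called as well, with 298 at an unadjusted p under 0.05. With all arrays, 39 of the 57 probe sets called in control muscle were among the 569 of 7453 with an unadjusted p under 0.05 for the genotype difference. The 57 were picked on control values that enter this difference too, so that count is no separate check.

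Among the other genes that rose, Tnni2, the inhibitory troponin of fast fibres, came first. It (93532_at) read 1434, 649 and 903 at 56 days and 2196, 2414 and 2363 at 112 days, a difference of 1.28 ± 0.21 (SE; limma, adjusted p = 0.0102), and 1.06 ± 0.22 without the pair, which did not pass (adjusted p = 0.0704). The 112-day level was close to that of younger control muscle, 2094 ± 188 at 14 days and 2175 ± 86 at 28 days (mean ± SD, n = 3), and the 56-day arrays were the low ones. In mdx muscle it read 1916, 1888 and 1802 and 2038, 1748 and 1486, with overlap, and the control difference minus the mdx difference of 1.38 ± 0.30 had an adjusted p of 0.559 in limma's test.

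Oxt, which encodes the hormone precursor of oxytocin and neurophysin, is best known from the hypothalamus. Its probe set (94775_at) read 223, 171 and 168 at 56 days and 1011, 846 and 591 at 112 days, a difference of 2.01 ± 0.39 (limma, adjusted p = 0.0241). Without the pair the difference was 1.79 ± 0.48 (adjusted p = 0.187). Control muscle read 666 ± 66.6 at 14 days and 569 ± 207 at 28 days (mean ± SD, n = 3), so the 56-day arrays were again the low ones. Mdx muscle read 316, 203 and 187 at 56 days and 184, 200.5 and 198 at 112 days, and the control difference minus the mdx difference was 2.23 ± 0.54 (limma, adjusted p = 0.559).

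Srpk1, Tcf7l2 and Mllt3 rose with all arrays and did not pass without the pair. Srpk1, a kinase of splicing factors, read 199, 76.9 and 454 at 56 days and 966, 606 and 609.7 at 112 days (102985_at; 1.78 ± 0.37, limma, adjusted p = 0.0273). Its difference without the pair was 0.97, and control 56-day replicate 2 and control 112-day replicate 1 held the ends of its range. Tcf7l2, a transcription factor of Wnt signalling, read 410.2, 468 and 599.5 against 1108, 1284 and 767 (102241_f_at; 1.06 ± 0.22, adjusted p = 0.0273, and 0.98 without the pair). A second tested probe set of Tcf7l2 was also higher, but its unadjusted p was not under 0.05. Mllt3, a subunit of a transcription elongation complex, read 826, 572 and 781 against 2738, 1349 and 1586 (103925_at; 1.31 ± 0.25, adjusted p = 0.0241, and 0.85 without the pair). In mdx muscle Mllt3 differed by 0.63, Tcf7l2 by 0.48 and Srpk1 by -0.07.

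The remaining rising genes named by rank had separate roles. Bcl2, the inhibitor of apoptosis, read 302, 218 and 259 at 56 days and 645, 626 and 833 at 112 days (98870_at; 1.38 ± 0.27, limma, adjusted p = 0.0241), and was almost the same without the pair (1.32, adjusted p = 0.176). A second probe set of Bcl2 (98869_g_at) differed by -0.03. Rasal3, a Ras GTPase-activating protein of blood cells, read 34.7, 74.2 and 58.2 against 379.9, 270.2 and 258 (92206_at; 2.17 ± 0.43, adjusted p = 0.0242, and 2.19 without the pair). Fbxw5, a substrate adaptor of a ubiquitin ligase, read 1016, 1134 and 1423 against 2862, 1978 and 2237 (96797_s_at; 0.97 ± 0.19, adjusted p = 0.0241, and 0.80 with an adjusted p of 0.19 without the pair), while its probe set 96799_at differed by -0.20. Krtap3-1, a keratin-associated protein of hair, read 131, 109 and 136 against 676, 288 and 365 (97470_at; 1.61 ± 0.32, adjusted p = 0.0241, and 1.19 with an adjusted p of 0.241 without the pair), with control 112-day replicate 1 highest.

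Among the genes that fell, Cbfa2t3 and Abhd8 had the smallest p after Meg3. Cbfa2t3, a corepressor of transcription, read 434, 819 and 621 at 56 days and 101, 199 and 227 at 112 days (102397_at; -1.76 ± 0.30, limma, adjusted p = 0.0118). Abhd8, a member of the alpha/beta hydrolase family, read 373, 655 and 327 against 29.9, 69.1 and 140.1 (104372_at; -2.40 ± 0.42, adjusted p = 0.0143). In both genes control 56-day replicate 2 was highest and control 112-day replicate 1 lowest of all 6, and the differences without the pair were -1.23 and -1.66 (adjusted p = 0.176 and 0.187). The second tested probe sets differed by -0.04 for Cbfa2t3 (95902_at) and -0.32 for Abhd8 (161243_f_at).

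Clcn5, a chloride and proton exchanger of endosomes, read 133, 147 and 104 at 56 days and 11.9, 17.3 and 44.4 at 112 days (101913_at; -1.90 ± 0.37, limma, adjusted p = 0.0241). A second tested probe set of Clcn5 was also lower, but its unadjusted p was not under 0.05. Hnrnpl, a splicing regulator, read 567, 619 and 725 against 80.3, 204 and 246 (95232_at; -1.88 ± 0.38, adjusted p = 0.0251). Mxd4, a repressor that competes with Myc for Max, read 812, 1218 and 945 against 339, 483 and 454 (99024_at; -1.19 ± 0.25, adjusted p = 0.0273). None of these 3 genes passed without the pair, where the differences were -1.58, -1.45 and -0.88. In mdx muscle Clcn5 differed by -0.41, Hnrnpl by -1.07 and Mxd4 by -0.94, and none passed the test. Mxd4 read 925, 1193 and 1069 at 56 days and 531, 653 and 465 at 112 days there, with no overlap.

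Of the 32 gene lists described, the extracellular matrix held the most called genes, all of them lower at 112 days. Of 59 listed genes 48 had a probe set and 41 were tested, and 35 of the 41 were lower at 112 days, with 17 at an unadjusted p under 0.05 (8.51% of all tested) and 4 called (0.322% of all tested were called lower), against 6 higher and 0 called. The median difference was -0.49 on the log2 scale, against 0.01 over all tested probe sets. The 3 arrays at 112 days lay below the 3 at 56 days in 15 of the 41, against 8.52% of all tested probe sets, and above them in 2. Without the pair 30 of the 41 were lower and 0 were called (0.0805% of all tested were called). The median was then -0.22, against 0.04 over all tested. The 2 arrays at 112 days lay below the 2 at 56 days in 20, against 20.2% of all tested, and above them in 7. The array labelled control 112-day replicate 1 was the lowest of the 6 in 33 of the 41 genes, where 26.5% of all tested probe sets were lowest on that array. Without it alone the median was -0.20. The summed intensity of the list was 64426 to 80040.4 at 56 days, 35368 on that array and 64979 and 65546 on the other arrays at 112 days.

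The 4 called genes encode fibrillar collagens and a protein that binds them. Col1a2, a chain of type I collagen, read 2700.3, 2069 and 2802 at 56 days and 829, 1444 and 1331 at 112 days (101130_at; -1.09 ± 0.22, limma, adjusted p = 0.0241). Col5a2, a chain of the type V collagen that starts fibrils, read 1735, 1074 and 1522 against 492, 682 and 987 (92567_at; -1.01 ± 0.23, adjusted p = 0.0364). Sparc, a matrix protein that binds collagen, read 4144, 3148 and 4895 against 1738, 2464 and 2539 (97160_at; -0.85 ± 0.19, adjusted p = 0.037). In each of these genes all 3 arrays at 112 days were below all 3 at 56 days, with control 112-day replicate 1 lowest. Their differences changed little without the pair, to -0.98 ± 0.22, -0.97 ± 0.23 and -0.84 ± 0.19, with adjusted p-values of 0.105, 0.12 and 0.105, so none passed there. A second probe set of Col1a2 (161156_r_at) went the other way, with 1389, 2953 and 1551 against 3023, 2235 and 2332 (0.43, adjusted p = 0.413).

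Col3a1, the chain of type III collagen, had 3 tested probe sets. The first (98331_at) read 4492, 3741 and 5031 at 56 days and 1029, 2252 and 2606 at 112 days (-1.26 ± 0.28, limma, adjusted p = 0.0352, and -0.97 without the pair). The second (102990_at) read 559, 406 and 724 against 98.3, 219.97 and 238 (-1.57 ± 0.29, adjusted p = 0.023). Without the pair it was -1.41 ± 0.28 with an adjusted p of 0.0516, just outside the threshold. The third (161984_f_at) overlapped between the ages and differed by -0.50.

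Eln, which encodes elastin, was called on the dimmer of its probe sets. That one (92207_at) read 186, 1157 and 219 at 56 days and 27, 45.6 and 15.1 at 112 days (-3.13 ± 0.62, limma, adjusted p = 0.0241, and -2.32 without the pair), with control 56-day replicate 2 far above the rest. The brighter one (92836_at), which stands for the gene in the list, read 4337, 2929 and 3777 against 1152, 2256 and 2186 and did not pass (-1.02 ± 0.31, adjusted p = 0.109, and -0.86 without the pair). It was lower on every array at 112 days.

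Other matrix genes had values that did not pass. Col1a1, the other chain of type I collagen (94305_at), differed by -1.57 with all arrays (limma, adjusted p = 0.0517) and by -1.18 without the pair. Lox (160095_at), the enzyme that crosslinks collagen and elastin, differed by -1.52 (adjusted p = 0.0705) and by -0.74 without the pair. Postn (92593_at), a matrix protein of fibroblasts, differed by -1.12 and by -0.29 without the pair, with 183 on control 112-day replicate 1 and 1218 and 1307 on the other arrays at 112 days. These 3 genes were singled out after their values were seen.

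Col1a2 and Col3a1 were brighter in control muscle at younger ages, and their values are given side by side since the 56-day arrays serve in both steps. From 14 through 28 and 56 to 112 days Col1a2 (101130_at) read 7149 ± 1855, 6329 ± 1519, 2524 ± 397 and 1202 ± 328 (mean ± SD, n = 3). Col3a1 (98331_at) read 11360.1 ± 1736, 8811 ± 1021, 4421 ± 648 and 1963 ± 827. In mdx muscle the order of the last 2 ages was the same for both genes. Col1a2 read 2626, 3015 and 2652 at 56 days and 1329, 1499.7 and 1338 at 112 days there, without overlap (-0.98 ± 0.22, limma, adjusted p = 0.136). The mdx differences of the other called matrix genes were smaller than in control muscle. They were -0.67 (98331_at) and -0.90 (102990_at) for Col3a1, -0.65 for Col5a2 and -0.30 for Sparc (limma, adjusted p from 0.496 to 0.888). Of the 41 matrix genes 32 were lower at 112 days in mdx muscle, 7 at an unadjusted p under 0.05 (2.97% of all tested) and 0 called (0.0268% of all tested). Their median was -0.17 against 0.03 over all tested probe sets.

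**Figure D4:**
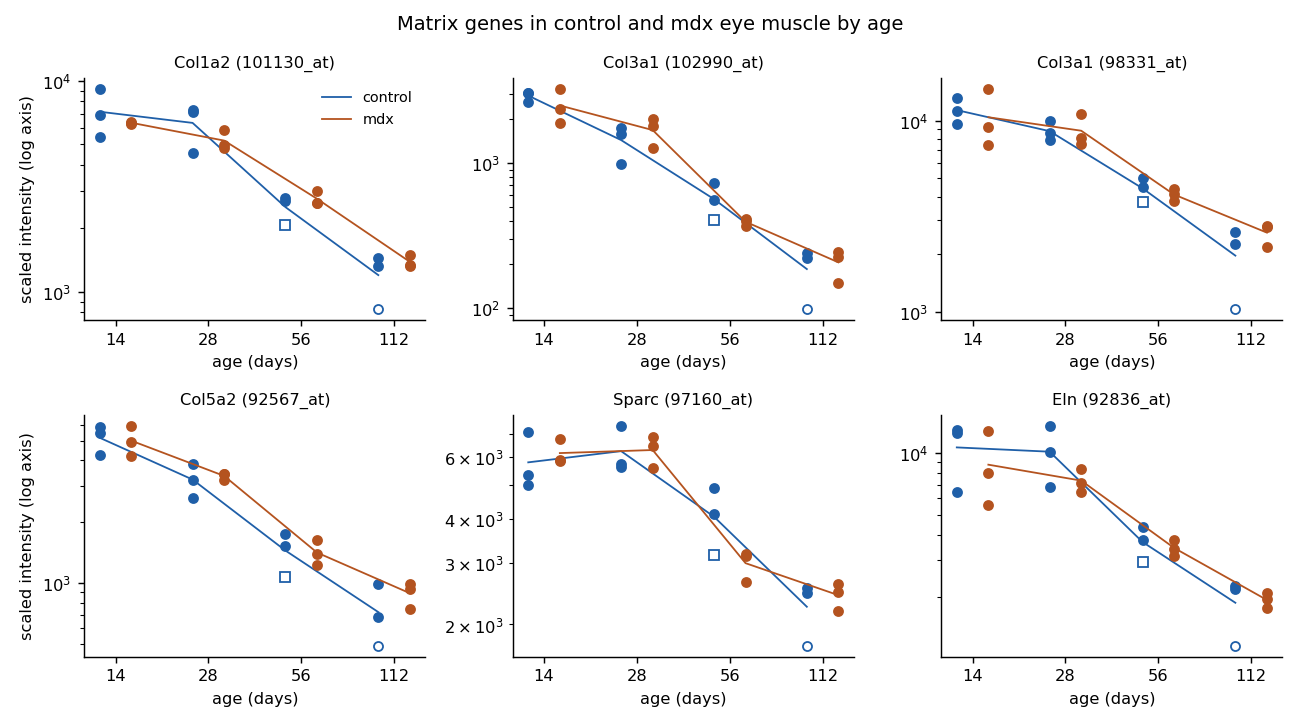
Scaled intensity (log axis, 1 range per panel) of 6 probe sets of matrix genes by age in control (blue) and mdx muscle (brown), with 1 point per array, lines through the group means, control 56-day replicate 2 as an open square and control 112-day replicate 1 as an open circle. In all 6 panels the arrays at 112 days lie below those at 56 days in control muscle, and the open circle is the lowest control array.

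The bases before the starts of Col1a2, Col3a1 and Sparc are shown because these genes fell together. They are from RefSeq (GRCm38.p6), written 5' to 3' on the strand of the gene up to the base before the start, with matches to the same 3 motifs in capitals.
Col1a2 (chr6:4505468-4505617, + strand): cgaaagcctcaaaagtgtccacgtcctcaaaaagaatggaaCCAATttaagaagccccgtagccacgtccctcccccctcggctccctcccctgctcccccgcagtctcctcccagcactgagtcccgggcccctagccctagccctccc
Col3a1 (chr1:45311388-45311537, + strand): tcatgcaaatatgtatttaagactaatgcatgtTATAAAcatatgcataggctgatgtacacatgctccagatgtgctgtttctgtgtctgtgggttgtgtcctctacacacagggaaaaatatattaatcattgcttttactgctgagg
Sparc (chr11:55420081-55420230, - strand): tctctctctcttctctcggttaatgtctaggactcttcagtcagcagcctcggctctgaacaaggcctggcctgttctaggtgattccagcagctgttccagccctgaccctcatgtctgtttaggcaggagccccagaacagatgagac
Col1a2 held CCAAT 109 bases before its start and Col3a1 held TATAAA 117 bases before its start. The stretch of Sparc held none of the 3, and no motif was held by all of them. Col5a2, Col1a1 and Eln were not matched in the table.

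Among the genes of fast fibres Tnni2 was the 1 called. Of 19 tested 15 were higher at 112 days, with a median of 0.46 against 0.01 over all tested probe sets, and without the pair 14 were higher, with a median of 0.16 against 0.04. The 1 call in 19 stands beside 0.765% called of all tested. Control 56-day replicate 2 was the lowest of the 6 arrays in 13 of the 19, where 24.1% of all tested probe sets were lowest on it. Ckm (161569_f_at), muscle creatine kinase, read 5508, 5051 and 6045 at 56 days and 11920.3, 9112 and 5851 at 112 days and did not pass (0.64 ± 0.23, limma, adjusted p = 0.161, and 0.34 without the pair). A second tested probe set of Ckm (160175_at) was lower with all arrays (limma, adjusted p = 0.847) and differed by 0.18 without the pair. In mdx muscle the median of the fast list was -0.27, with 14 of 19 lower.

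The heavy chain genes of muscle myosins that were tested gave no called difference. Myh3 differed by -2.15 with all arrays (adjusted p = 0.228) and by -0.08 without the pair. Its 2 remaining arrays at 112 days read 4959 and 4927, inside the range of 56 days. Myh8 (160243_r_at) differed by -1.17 and by 0.04, Myh6 (101071_at) by -0.70 and 0.29, and Myh4 (98488_at), the fastest of the adult myosins, by -0.82 and 0.14, with the second value of each from the fit without the pair. The signs of these 3 genes turned without the pair. Without control 112-day replicate 1 alone Myh6 differed by 0.37 and Myh4 by 0.66, while Myh8 kept its sign at -0.05. Myh1 (98308_at) read 12593, 5964 and 8029 at 56 days and 12877, 13239 and 8853 at 112 days (0.44, and 0.11 without the pair), and the slow Myh7 (98616_f_at) read 7367, 4761 and 6277 against 5804, 6433 and 5566 (-0.03, and -0.18). Acta1 (100381_at), skeletal actin, spread from 290.4 to 12928 over the 6 arrays, with overlap between the ages, and its difference of 1.71 ± 1.18 had an adjusted p of 0.458. Myl4 (100828_at), the atrial light chain also found in fetal muscle, read 462, 807 and 491 against 1146, 897 and 878 and did not pass (0.75, adjusted p = 0.154), and its probe set 160487_at differed by -0.03.

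In the mitochondria, 1 of 57 tested genes of oxidative phosphorylation was called, beside 0.765% of all tested probe sets. Ndufv3 (97874_at), a subunit of complex I, read 2294, 2117 and 2782 at 56 days and 1178, 1309 and 993 at 112 days (-1.04 ± 0.23, limma, adjusted p = 0.0352), with no overlap, and differed by -1.14 without the pair (adjusted p = 0.153). In mdx muscle it read 1656, 2268 and 2012 and 1195, 1161 and 1147, again with no overlap (-0.74, adjusted p = 0.436). Cox8b (160851_r_at), a muscle isoform of a cytochrome oxidase subunit, read 7267, 4918 and 6968 against 1586, 1339 and 3555 and did not pass (-1.67 ± 0.43, adjusted p = 0.0583, and -1.70 without the pair). The mdx values of Cox8b were 6716, 9878 and 10859 and 1494, 2393 and 2266, also without overlap (-2.15, adjusted p = 0.0722). The list as a whole had 42 genes higher and 15 lower with all arrays, a median of 0.21, and 28 higher and 29 lower without the pair, a median of -0.01. Control 56-day replicate 2 was the lowest array in 38 of the 57.

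At the neuromuscular junction 11 of 14 tested genes were lower, with a median of -0.42, and -0.08 without the pair. Of the 14, 0 were called, where 0.765% of all tested probe sets were called. Ache (104650_at), the esterase that clears acetylcholine, read 2061, 824 and 1374 at 56 days and 332, 663 and 968 at 112 days, with overlap (-1.13 ± 0.32, limma, adjusted p = 0.0873, and -1.06 without the pair). In mdx muscle Ache read 1599.5, 1394 and 1679 against 537, 715 and 842, without overlap (-1.16, adjusted p = 0.39). Chrna1 (100021_at) differed by -1.21 with all arrays and -0.20 without the pair. Of 18 tested genes of the dystrophin complex and the basement membrane 1 was called, where 0.322% of all tested probe sets were called lower. It was Lama5 (99931_at), a laminin chain, with 607, 769 and 454 against 124, 237 and 361 (-1.37 ± 0.30, adjusted p = 0.0353, and -0.81 without the pair). The median of that list was -0.11 with all arrays and -0.16 without the pair. The Lama5 probe set 161702_f_at differed by 0.04.

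Among growth signals Mtor, the kinase that links nutrients to protein synthesis, had probe sets that disagreed. The probe set 95302_at read 357, 112 and 338 at 56 days and 697, 644 and 541 at 112 days and rose (1.32 ± 0.31, limma, adjusted p = 0.0429, and 0.74 without the pair). The probe set 103309_at read 811, 1503 and 653 against 520.4, 548 and 473 (-0.84 ± 0.25, adjusted p = 0.103), so its arrays were separated in the opposite direction. The other 22 tested genes of the insulin-like growth factor and myostatin list were not called, where 0.765% of all tested probe sets were called. The median of the list was -0.21, and -0.12 without the pair.

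Vessel and nerve genes had single calls. Of 27 tested genes of endothelium and vessel wall, 1 rose (Cnn1) and 1 fell (0.765% of all tested were called), with a median of -0.10, and -0.01 without the pair. The one that fell was Sox18, a transcription factor of developing vessels, with 1591, 1052 and 1465 at 56 days and 440.1, 815 and 695 at 112 days (104408_s_at; -1.08 ± 0.21, limma, adjusted p = 0.0241, and -1.01 ± 0.21 with an adjusted p of 0.0516 without the pair). Its second probe set (161025_f_at) was also lower on every array at 112 days (-0.62, adjusted p = 0.101). In mdx muscle 104408_s_at read 1490.2, 1275 and 1368 and 672, 790.02 and 757, without overlap (-0.88, adjusted p = 0.241). Mylk (93482_at), the myosin light chain kinase of smooth muscle, read 1139, 1286 and 1416 against 843, 2321 and 2687, with control 112-day replicate 1 low (0.44, and 0.97 with an adjusted p of 0.0516 without the pair). Without that array alone Mylk passed (0.96, adjusted p = 0.0214). Of all tested probe sets, 17.7% had an unadjusted p under 0.05 in either direction with all arrays (8.51% lower), and 9.58% without the pair. At that threshold 3 of the 27 were higher and 7 lower with all arrays, and 7 higher and 2 lower without the pair. The 7 higher ones were Cnn1, Mylk, Vwf, which encodes the clotting factor of endothelium, and 4 genes of the contractile apparatus of smooth muscle. Of these 4, Myl9 (96939_at), a light chain, differed by 0.66 with all arrays and 0.85 without the pair, and Acta2 (93100_at), smooth muscle actin, by 0.26 and 0.79. Myh11 (97990_at), the heavy chain, differed by 0.10 and 1.13, and Tagln (93541_at), an actin-binding protein, by 0.13 and 0.65. None of the 4 passed in either fit, and their differences in mdx muscle were 0.62, 0.90, 1.22 and 0.68 in the same order. They were singled out after their values were seen. The summed intensity of the vessel list was 22331 to 23310 at 56 days, 15210.4 on control 112-day replicate 1 and 25568 and 26823 on the other arrays at 112 days, and its part in these results was not tested. Pdpn (104469_at), a surface glycoprotein of lymphatic vessels and fibroblasts, read 388, 596 and 449.6 against 98.7, 297 and 201 and fell (-1.30 ± 0.28, adjusted p = 0.0309, and -0.74 without the pair).

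Of 13 tested nerve and myelin genes 9 were lower and 1 was called (0.322% of all tested were called lower), with a median of -0.24. Without the pair 6 were lower and 7 higher, the median was 0.04 and 0 were called (0.0805% of all tested were called). Mbp (96311_at), myelin basic protein, read 1718, 3085 and 2278 at 56 days and 543, 1364 and 1059 at 112 days (-1.30 ± 0.28, limma, adjusted p = 0.0352). A second tested probe set of Mbp was also lower, but its unadjusted p was not under 0.05. Pmp22 (102395_at), another myelin protein, read 3283, 3904 and 4738 against 523, 2313 and 2795 and did not pass (-1.37 ± 0.35, adjusted p = 0.0624). In both, control 112-day replicate 1 was the lowest array, and the differences without the pair were -0.71 and -0.63 (adjusted p = 0.39 and 0.201). The summed level of the list was 13644 to 17425 at 56 days, 8576 on that array and 12167 and 14398 on the others. In mdx muscle Mbp read 1352, 1436 and 1942 and 1392, 1380.3 and 1376, with overlap.

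The 4 immune lists held 0 called genes in both fits, where 0.765% of all tested probe sets were called with all arrays and 0.0805% without the pair. With so few calls among all probe sets, 0 in short lists says little about these genes. Of the 4 medians, 3 changed sign without the pair. The median of 19 macrophage and monocyte genes was -0.11 with all arrays and 0.30 without the pair, and that of 28 genes of antigen presentation and interferon was -0.09 and 0.21. That of 9 mast cell and granulocyte genes was -0.06 and 0.28, while that of 7 lymphocyte genes kept its sign, at 0.22 and 0.44. Gbp7 (100880_at), an interferon-induced GTPase, read 276, 82.9 and 336 at 56 days and 915, 883 and 598 at 112 days (1.89 ± 0.46, limma, adjusted p = 0.0523), with control 56-day replicate 2 lowest, and differed by 1.21 without the pair. Ifi30 (97444_at), a lysosomal thiol reductase, read 217, 54.1 and 141 against 49.7, 45.1 and 29.2 and did not pass in either fit (-1.27, adjusted p = 0.0918, and -1.86, adjusted p = 0.0516).

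The lists of other tissues and cell types that a dissection could carry held 0 called genes, beside 0.765% called of all tested probe sets. They were 10 erythroid, 20 adipocyte, 9 photoreceptor and retina, 7 lacrimal and Harderian gland, 16 surface epithelium and melanocyte, 10 cartilage, bone and tendon and 7 exocrine pancreas and liver genes that could be tested. Among them the pigment cell genes Mc1r (101161_at), the receptor of melanocortin, and Pmel (102930_at), a melanosome protein, were higher on every array at 112 days and did not pass. Mc1r read 111, 85.6 and 114 against 251, 237 and 267 (1.17, limma, adjusted p = 0.0855, and 1.06 without the pair) and Pmel read 188, 76.8 and 121 against 389, 315 and 249 (1.26, adjusted p = 0.0873, and 0.83 without the pair). Ctrb1 (160421_r_at), a digestive protease, read 438, 474 and 435 against 948, 898 and 974, also without overlap (1.04, adjusted p = 0.133, and 1.07 without the pair). The medians of these lists of other tissues lay between -0.18 and 0.57 with all arrays and between -0.06 and 0.54 without the pair. Pancreas and liver had 0.57 and 0.53, with 6 and 7 of 7 genes higher. Surface and melanocyte had 0.23 and 0.54, with 13 and 14 of 16 higher. In mdx muscle their medians were -0.02 and 0.14. The summed level of the 7 pancreas and liver genes was 2637 to 3944 at 56 days and 3692 to 4471 at 112 days, and that of the 16 surface and melanocyte genes 3563 to 6573 and 4519 to 6759. The rest of the 32 lists, among them ribosomal proteins, proteasome, glycolysis, the citric acid cycle, the circadian clock, immediate early genes and cell proliferation, held 0 called genes in both fits. Of all tested probe sets 0.765% were called with all arrays and 0.0805% without the pair.

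**Figure D5:**
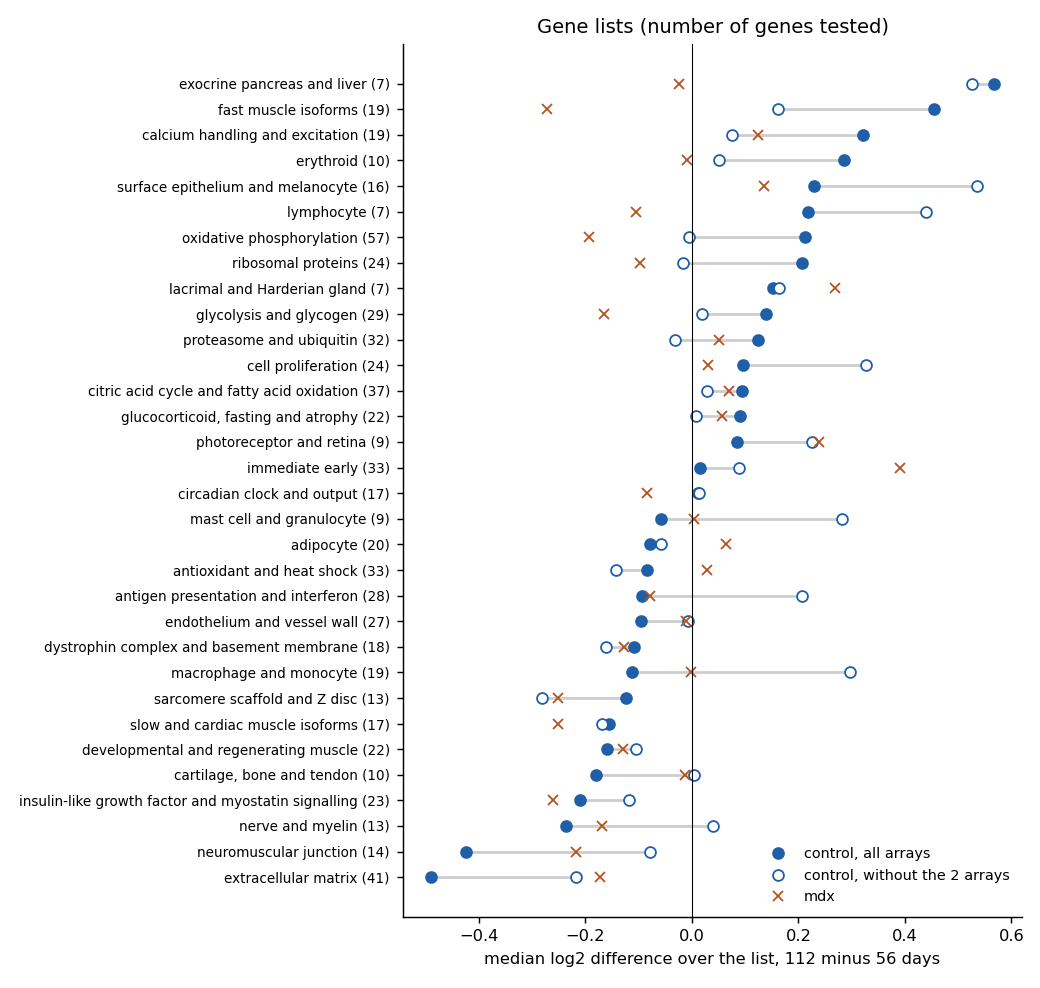
Median log2 difference (112 minus 56 days) over each of 32 gene lists, with the number of genes tested, in control muscle with all arrays (filled circles), in control muscle without control 112-day replicate 1 and control 56-day replicate 2 (open circles) and in mdx muscle (crosses). The extracellular matrix has the lowest median with all arrays (-0.49), and the fast muscle list goes from 0.46 to 0.16 without the pair while mdx muscle has -0.27.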

How the data were processed

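Total RNA of mouse extraocular muscle was measured on 24 Affymetrix arrays of 1 colour in 8 groups of 3, grouped by sample title. The authors deposited linear intensities for every probe set, and per the labels they followed a standard Affymetrix protocol. How the scans were turned into intensities is not given in the sources used here. The trimmed mean of every array lay between 1500.5 and 1500.9 as deposited, so the arrays had been brought to 1 level.

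Values under 1 were set to 1, each array was scaled so that its mean, trimmed by 2% at either end, was 500, 16 was added and the log2 taken, which understates changes of dim probe sets. Differences are log2(value + 16). After the 66 control probe sets were removed, probe sets at or above the 40th percentile of mean level were tested, 7453 of 12422. Only the 10833 probe sets to which the platform annotation gives 1 symbol were named, while 396 have several and 1193 none. One limma model (limma 3.58.1, R 4.3.3) held a mean for each group over all 24 arrays with 16 residual degrees of freedom, or 22 arrays and 14 without the pair that stood apart, with a variance trend. Tests were two-sided, adjusted by Benjamini-Hochberg over all tested probe sets and called under 0.05. The script was tested on simulated data.

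Named genes are the 12 rising and 12 falling ones of smallest p that passed, those that passed without the pair, up to 4 of smallest p in each of 32 gene lists with the 2 of smallest p without the pair, and the myosin, dystrophin, actin and creatine kinase genes. Genes that set an array apart are the 6 highest and 6 lowest by difference from the other arrays of its group, with the Hox genes added later. The brightest probe set stands for a gene in a list. The genes, lists and arrays to leave out were chosen with earlier results of these data known. Alternatives tried were the scaling, the offset, the filter, the replicate number as a block, array weights, the arrays in the fit, the largest signal as a covariate and leaving out each array.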

Additional observations from a re-analysis of the deposited data

How the results depend on the processing

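With all arrays, 57 probe sets were called, and the count ran from 7 to 171 when 1 of the 6 arrays was left out. It was 148 without control 56-day replicate 1 (47 of the 57 among them), 7 without control 112-day replicate 1 (6 among them), 24 without control 112-day replicate 2 (19 among them) and 171 without control 112-day replicate 3 (54 among them). Without control 56-day replicate 2 the genes Bcl2, Eln (92207_at), Hnrnpl, Krtap3-1, Mllt3, Mxd4, Pdpn, Srpk1 and Tcf7l2, all named by rank, did not pass. Each of these was also lost without control 112-day replicate 1. The filter at the 60th percentile gave 34 and array weights gave 422. A fit to the 6 arrays alone gave 0 in limma's test, with 713 at an unadjusted p under 0.05, and a fit to the 12 control arrays 4. The largest signal as a covariate gave 20, and leaving out both arrays that stood apart 6. Without that pair the 6 calls became 11 with median scaling, 1 with quantile normalization, 15 with an offset of 1, 1 with an offset of 64, 2 without the filter, 1 with the filter at the 60th percentile, 11 without the variance trend, 50 with array weights, and 0 in a fit to the 4 arrays alone (1032 at an unadjusted p under 0.05) or to the 10 control arrays (733). The genotype difference, with 0 calls, gave 1 without the filter, 10 with array weights and 0 to 1 when 1 array was left out.

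Same-numbered arrays of the 2 ages were not correlated in their deviations (r = -0.07, -0.05 and 0.06), so the numbers were not taken as pairs. With the replicate block the count was 79 in place of 57, 3 in place of 6 without the pair that stood apart, and 0 for the genotype difference. Meg3 (160173_at) was called in 18 of 19 alternatives, Wnk1 (161270_i_at) in 18 of 19, Mau2 in 17 of 18, Tnni2 in 16 of 19, Col3a1 (102990_at) in 15 of 19, Col1a2 in 13 of 19, Cnn1 in 13 of 18, Myh9 in 12 of 19 and Arf2 in 11 of 18. All of these kept their sign. Meg3, Wnk1 and Mau2 were each lost in the fit to the 6 compared arrays alone (limma, adjusted p = 0.293, 0.0842 and 0.293), while their adjusted p over the alternatives went down to 1.193e-05, 0.000184 and 0.000154.

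Uncalled myosin and creatine kinase values changed sign. Median scaling gave 0.049 for Myh7 (98616_f_at) and 0.040 for Myl4 (160487_at), and quantile normalization 0.063 for Myl4. Array weights gave 0.092 for Ckm (160175_at), 0.30 for Myh4 (98488_at) and 0.24 for Myh6, and the covariate -0.019 for Myh1. Leaving out the pair gave 0.18 for Ckm (160175_at), 0.14 for Myh4, 0.29 for Myh6 and 0.039 for Myh8. Leaving out 1 array gave -0.52 to 0.15 for Ckm, -1.81 to 0.66 for Myh4, -1.28 to 0.37 for Myh6, -0.20 to 0.12 for Myh7 and -0.21 to 0.15 for Myl4. The cause of these shifts was not tested. With 3 arrays an age the number of arrays limits the precision, and dim probe sets such as Arf2 and Eln (92207_at) depend most on the offset.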

Other observations

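Called genes outside the ranked ones were chosen here after their values were seen. Hs3st3a1 (161943_at), a heparan sulfate sulfotransferase, read 15.2, 72.9 and 32.7 at 56 days and 140.0, 338 and 163 at 112 days, a log2 difference of 2.06 ± 0.47 (SE; limma, adjusted p = 0.0375). Without control 112-day replicate 1 and control 56-day replicate 2 the difference of Hs3st3a1 was larger, 2.69, with an adjusted p of 0.0516, and in mdx muscle it was 0.35. Gh (92783_at), the growth hormone gene, whose main site is the pituitary, read 335, 529 and 506 at 56 days and 786, 921 and 918 at 112 days (0.94 ± 0.20, limma, adjusted p = 0.0278, and 1.13 with an adjusted p of 0.0516 without the pair), against a difference of 0.07 in mdx muscle. Slc38a5 (160907_at), an amino acid transporter, read 643, 1432 and 1278 at 56 days and 2887, 2658 and 2159.8 at 112 days (1.26 ± 0.28, limma, adjusted p = 0.0353, and 1.39 with an adjusted p of 0.134 without the pair). G0s2 (97531_at), an inhibitor of fat breakdown, read 1355, 1121 and 1247 at 56 days and 428, 659.9 and 716 at 112 days, a difference of -1.05 ± 0.24 (limma, adjusted p = 0.0397), and without the pair -0.90, with an adjusted p of 0.259.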
